A study of Mus musculus with 15 samples.

Results

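Wild-type mouse embryonic fibroblasts were kept in osteogenic medium, and their RNA was compared between day 14 and day 4 of that culture. The comparison used every wild-type (WT) library of the series, 3 of day 14 and 3 of day 4, which are 6 of its 15 samples. Gene lists and key genes were chosen with earlier results of these data known, and most named genes for their large changes. The test itself covered all 15296 genes that passed a filter on low counts. That filter and the fit of the spread used all 15 samples, which include β-actin knockout cells and heterozygous (HET) cells of day 14. With the WT libraries alone, 14086 genes were tested. The WT cells carry the β-actin +/+ genotype, and the labels give BALB/c as the strain and embryos of 10.5 days as the age. Both WT groups were grown to confluence in DMEM on Matrigel and then moved to OsteoMax-XF, a bone induction medium. Dexamethasone, a synthetic glucocorticoid, and forskolin, which activates adenylate cyclase and so raises cAMP, were present in that medium in every group, so no group lacks them. No untreated sample and none from before the switch of medium was analysed here, and each value below is a change within the treatment. Cells labelled β-actin −/− (KO), from BALB/c embryos of the same age and in the same medium, were used at the same days for the test of whether a change differed. The labels name a single outside laboratory as the source of the fibroblasts and give no embryo, culture or batch for any library. The spread that enters a p-value here is therefore that of the libraries alone, and it may be technical.

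Osteoblasts form bone by secreting a matrix rich in type I collagen and then mineralizing it. Runx2 starts the lineage, Sp7 (osterix) acts after it, alkaline phosphatase frees phosphate for mineral, and osteocalcin, bone sialoprotein and Dmp1 mark the mature stages. Glucocorticoids act through the receptor Nr3c1 on genes such as Fkbp5, while cAMP acts through protein kinase A and the factor CREB on a set of rapid response genes that includes the Nr4a receptors. Fibroblasts in a dense layer also deposit and remodel matrix, and RNA from a plate of cells is an average over all of them.

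Reads counted in genes came to 47.5, 41.8 and 25.7 M at day 4 and to 20.02, 20.41 and 20.42 M at day 14. The deeper libraries were thus all of day 4, and depth and day cannot be told apart. Expression is given as CPM, a gene's counts scaled to the TMM-adjusted depth of its library, in the order of replicates 1 to 3, and changes as log2 fold changes of day 14 over day 4 ± SE. A single CPM with ± is a mean with its SD (n = 3). Libraries of a day differed by more than counting noise alone, with a chi-square divided by its degrees of freedom of 2.27 to 2.99 for pairs of day 4 and of 5.02 to 18.6 for pairs of day 14. The day 14 libraries held counts in more genes, 22087 to 24154 against 18570 to 19924, and still did after every library was thinned to 20 M reads (22082 to 24067 against 18081 to 18144). Olfactory and vomeronasal receptor genes, which fibroblasts are not known to use, had a count in 127, 190 and 244 of 1702 at day 14 and in 34, 27 and 22 at day 4. The 6 predicted genes of satellite-like repeats, Gm10800 among them, summed to 563, 1130 and 1561 CPM at day 14 and to at most 5.08 at day 4. Ribosomal protein genes took 3.64%, 4.09% and 4.55% of counts at day 14 and 2.46% to 2.47% at day 4, and mitochondrially encoded genes 0.484% to 0.542% and 0.415% to 0.421%. The part of these differences in the gene results was not tested.

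Most of the transcriptome differed between the days. Of 15296 genes, 11410 (74.6%) passed an adjusted p under 0.05 in the quasi-likelihood test of edgeR after Benjamini-Hochberg adjustment, 6075 higher (39.7%) and 5335 lower (34.9%) at day 14. Changes of 2-fold or more made up 3195 of the higher (20.9%) and 2043 of the lower genes (13.4%). The median change over all genes was 0.08, and the median size of change regardless of sign was 0.71. These shares are the background for every gene group below: a list with similar shares does not stand apart from all genes. Without regard to p, the 3 libraries of day 14 all lay above those of day 4 in 6317 genes (41.3%) and all below in 5611 (36.7%). Scaling by library totals in place of TMM shifted the median by 0.20, to 7276 higher and 4233 lower genes (63.2% of calls higher against 53.2%), and upper quartile scaling shifted it by 0.16, to 7034 and 4477. The first principal component, which separated the days, held 97.0% of the variance among the 6 libraries. Of 356 genes that were examined singly, by the rules given with the methods, 352 passed. In none of those did the libraries of the 2 days overlap. Most of the 356 were chosen because they passed and had large changes, so these counts say nothing about genes at large. The largest adjusted p among the named genes that changed by 2-fold or more was 0.00149 (edgeR), so p-values are printed below only for smaller changes.

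The bone programme went in several directions. Runx2, the factor that commits cells to the osteoblast lineage (ENSMUSG00000039153, chromosome 17, 44495987 to 44814797, GRCm38), was at 73.0, 70.1 and 70.6 CPM at day 4 and at 21.8, 21.0 and 18.9 at day 14. Every library of day 14 was below every library of day 4, a change of -1.79 ± 0.08. Sp7, its successor in the lineage, had 2 counts over the 3 libraries of day 4 and 4 over those of day 14 and could not be tested. Dlx3, a homeobox factor of bone and skin, changed by -4.71 ± 0.48 from 7.02 to 0.265 CPM. Without replicate 3 of day 14 the Dlx3 change was -5.86. Fosl1, an AP-1 subunit, fell from 312 ± 12.6 to 108 ± 7.20 CPM, a change of -1.52 ± 0.06 (-2.13 with the correction for gene length and GC content described with the length results), and Atf4, a further factor of the list, is described with the amino acid genes. Msx1, a homeobox factor of craniofacial bone, rose by 1.83 ± 0.12, from 6.68, 6.78 and 6.15 to 21.4, 23.2 and 25.4 CPM. Among 18 tested osteoblast transcription factors, 3 rose and 12 fell, with a median of -0.85. In RNA of a whole culture, fewer cells of a type and less RNA per cell cannot be told apart.

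Of 17 tested genes of bone matrix and mineralization, 4 rose and 9 fell, with a median of -0.76. Alpl, the tissue-nonspecific alkaline phosphatase (ENSMUSG00000028766, chromosome 4, 137741733 to 137796384), rose from 22.7, 23.1 and 20.2 CPM to 132, 118 and 133. All 3 libraries of day 14 stood more than 5 times above the highest of day 4, and the change was 2.53 ± 0.07. Col1a1, the alpha 1 chain of type I collagen (ENSMUSG00000001506, chromosome 11, 94936224 to 94953042), was at 110.3, 107 and 104 CPM at day 4 and at 1053, 1010.1 and 950.2 at day 14, a rise of 3.23 ± 0.06. Its partner chain Col1a2, which normal type I collagen contains beside the alpha 1 chain, was close to absent. It had 2 counts over day 4 and 20 over day 14, a ratio of 16.5 with a 95% counting interval of 4.00 to 145, at no more than 0.464 CPM in any library.

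Spp1, the secreted phosphoprotein osteopontin (ENSMUSG00000029304, chromosome 5, 104435118 to 104441050), went the other way from Alpl and Col1a1, from 3521, 3519 and 3547 CPM to 1324, 1506 and 1552, a change of -1.27 ± 0.09. Pdpn, podoplanin, a membrane glycoprotein of young osteocytes and of activated fibroblasts, changed by -2.73 ± 0.04 from 1803 ± 5.85 CPM. Gja1, the gap junction protein connexin 43 through which bone cells are coupled, changed by -1.75 ± 0.08, or by -1.09 with length and GC correction. A pair of genes that set extracellular pyrophosphate, an inhibitor of mineral, fell together: Enpp1, which makes it, by -1.62 ± 0.12, and Ank, which exports it, by -1.33 ± 0.06. Sparc, osteonectin, stood at 1394, 1369 and 1305 CPM and 1402, 1399 and 1425, groups that nearly meet, and was not called (edgeR adjusted p = 0.328). The mature markers gave almost no counts: Bglap (osteocalcin) had 11 and 10 over the 3 libraries of days 4 and 14, Ibsp (bone sialoprotein) 0 and 3, Dmp1 0 and 4 and Mepe 5 and 0. Of the genes that define osteoblasts, the cell type on the labels, Runx2, Alpl and Col1a1 were thus present, and Sp7, Bglap, Ibsp and Dmp1 were at or near 0.

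**Figure D1:**
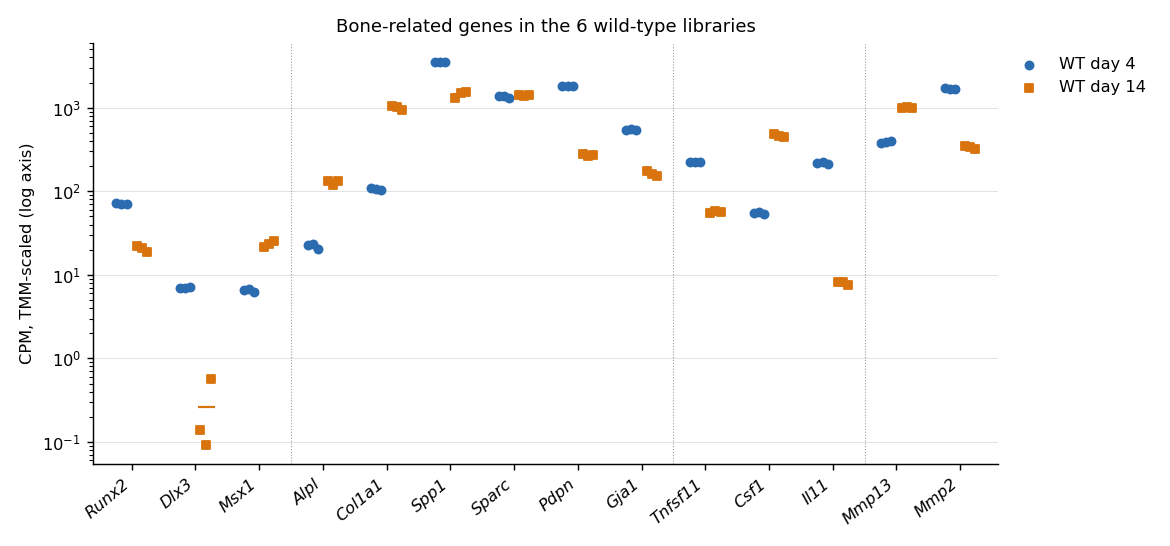
CPM on a log axis of 14 bone-related genes in the 3 WT libraries of day 4 (circles) and the 3 of day 14 (squares), with a bar at each mean; dotted lines part transcription factors, matrix and mineral genes, secreted signals and proteases. Alpl, Col1a1, Msx1, Csf1 and Mmp13 were higher at day 14 in every library, the others were lower, except Sparc, at 1305 to 1394 and 1399 to 1425 CPM.

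Signals from osteoblasts to bone-resorbing osteoclasts also split. Tnfsf11, the osteoclast differentiation factor RANKL (ENSMUSG00000022015, chromosome 14, 78277445 to 78308043), was at 225, 223 and 225 CPM at day 4 and at 55.5, 58.1 and 57.0 at day 14. The libraries of each day were within a few percent of each other, and the change was -1.98 ± 0.10. Tnfrsf11b, its decoy receptor osteoprotegerin, stayed under the filter with 45 and 9 counts over the groups. Csf1, the macrophage growth factor that osteoclast precursors need, rose from 55.5, 56.0 and 53.1 to 487, 461 and 445 CPM, a change of 3.08 ± 0.06. Il11, a cytokine of the interleukin 6 family, changed by -4.76 ± 0.13 from 218 ± 4.88 CPM, and Efnb2, an ephrin used between bone cells, by -2.47 ± 0.07. Of 10 tested genes of this group, 5 rose and 3 fell, a split near that of all genes. Genes of osteoclasts themselves were low, with a list sum of 17.8 to 19.6 CPM at day 4 and 8.95 to 10.5 at day 14. Of 10 listed, 4 were tested, of which 1 rose and 2 fell, Itgb3 and Nfatc1. Under the filter, Acp5 had 1 and 25 counts over the groups of days 4 and 14, and Dcstamp 0 and 0.

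Matrix genes moved both ways, with strong falls in several abundant transcripts. Tnc, the adhesion modulator tenascin C (ENSMUSG00000028364, chromosome 4, 63959785 to 64047015), fell from 1837, 1816 and 1813 CPM to 52.7, 45.4 and 41.1, a change of -5.30 ± 0.15. Col12a1, a collagen that lies on the surface of type I fibrils (ENSMUSG00000032332, chromosome 9, 79598991 to 79718831), fell from 1085, 1107 and 1113 to 41.2, 29.9 and 27.2 CPM, a change of -5.07 ± 0.21. In both genes every library of day 14 was far below every library of day 4. Vcan, the large proteoglycan versican, changed by -4.18 ± 0.17 (-3.44 with length and GC correction) and Thbs2, thrombospondin 2, by -3.98 ± 0.10. On the rising side stood Efemp1 and Efemp2, fibulins of elastic fibres, at 4.51 ± 0.12 and 1.55 ± 0.06, and Ogn, the small proteoglycan osteoglycin, at 5.33 ± 0.34 from 0.170 to 7.38 CPM. Over the list of 39 proteoglycans and glycoproteins, 17 rose and 16 fell, yet their summed CPM went from 9459 to 9547 at day 4 to 3650.1 to 4100.2 at day 14.

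Collagen chains counted 13 higher and 11 lower of 26. Beside Col1a1, Col8a1 and Col16a1, a network-forming and a fibril-associated chain, rose by 2.43 ± 0.05 and 2.43 ± 0.06. Col23a1, a transmembrane collagen, and Col11a1, a chain that limits fibril width, changed by -3.48 ± 0.14 and -2.53 ± 0.24. Enzymes that fold, cut and crosslink collagen rose in 17 of 25 and fell in 7, with a median of 0.57. Scaling by library totals took the number lower to 4. Adamts2, which removes the N-terminal propeptide of procollagen, led with 3.62 ± 0.11, from 5.91 to 73.3 CPM. Plod2, a lysyl hydroxylase that shapes crosslinks, went the other way, with -0.90 ± 0.07 (edgeR adjusted p = 4.20e-09).

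Of 34 tested genes of matrix proteases and their inhibitors, 21 rose and 10 fell, with a median of 0.60. The summed CPM of that list was 4571 to 4604 at day 4 and 2732 to 2898 at day 14. Mmp13, the collagenase of bone and cartilage (ENSMUSG00000050578, chromosome 9, 7272514 to 7283331), rose from 379.7, 392 and 397 to 999, 1019.6 and 989 CPM, a change of 1.36 ± 0.05. Mmp2, the gelatinase of fibroblasts, fell from 1712, 1699 and 1682 to 352, 336 and 318 CPM, a change of -2.34 ± 0.05. Stromelysin 1, Mmp3, changed by -3.86 ± 0.09 from 512 ± 6.95 CPM, and Adamts1, a protease of proteoglycans, by -3.81 ± 0.07 from 692 ± 9.35. Mmp9 and Mmp11 rose by 2.79 ± 0.19 and 2.10 ± 0.07, from 1.40 to 9.90 and 10.7 to 46.0 CPM.

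Cytoskeletal genes were higher on balance, with 16 of 26 actin and contractile genes up, 4 down and a median of 0.91. Actb, the β-actin gene that is intact in these cells (ENSMUSG00000029580, chromosome 5, 142903115 to 142906754), rose from 1193, 1186 and 1164 CPM to 2947, 2974 and 3067, a change of 1.34 ± 0.05. Actg1, the other cytoplasmic actin, rose by 0.88 ± 0.10 (edgeR adjusted p = 1.06e-06). Acta2, the smooth muscle alpha-actin of myofibroblasts (ENSMUSG00000035783, chromosome 19, 34241090 to 34255590), went from 0.389, 0.338 and 0.590 CPM to 25.1, 25.9 and 26.6, a change of 5.94 ± 0.22. Des, the muscle intermediate filament desmin, rose by 4.81 ± 0.21 from 0.532 to 15.2 CPM, and the calponin Cnn2 and the tropomyosin Tpm2 by 2.13 ± 0.07 and 2.0 ± 0.13. Flna, the actin crosslinker filamin A, changed by -1.0 ± 0.12 from 1147 ± 11.6 CPM. Myh11 and Myocd, which define differentiated smooth muscle, had at most 12 and 18 counts over a group. Reads shared among the similar actin genes leave their counts uncertain. The library kit kept no strand, so a gene and an antisense transcript over it cannot be told apart.

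Fibroblast identity markers moved in both directions, 9 up and 9 down of 21. Vim, the filament vimentin, rose from 390.4, 399 and 399 to 644, 678 and 718 CPM, a change of 0.78 ± 0.06 (edgeR adjusted p = 2.08e-08). Prrx1, a homeobox factor of mesenchyme, changed by -1.69 ± 0.08 (-1.02 with length and GC correction), and Cdh2, N-cadherin, by -1.45 ± 0.07. Pdgfra, a growth factor receptor of mesenchymal cells, stood at 50.2, 50.7 and 50.5 CPM and 47.3, 42.7 and 39.9, a change of -0.22 ± 0.08 (edgeR adjusted p = 0.024) that turned to 0.24 with length and GC correction. That call ended without replicate 2 of day 4 or replicates 2 or 3 of day 14. The surface marker Thy1 had 0 and 1 counts over the groups.

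Markers of other cell types were few. Of 12, 14, 13 and 12 endothelial, leukocyte, epithelial and skeletal muscle genes listed, 6, 5, 7 and 1 were counted often enough to be tested. The endothelial list summed to 27.1 to 30.5 CPM at day 4 and 10.3 to 10.8 at day 14, the leukocyte list to 81.1 to 85.4 and 37.2 to 39.5, and the epithelial list to 2.19 to 2.38 and 7.38 to 8.83. Of the tested endothelial genes 0 rose and 4 fell, of the leukocyte genes 2 and 2, and of the epithelial genes 5 and 0, with a median of 3.76 for the epithelial list. Krt17, an epithelial keratin outside that list, stood at 70.0, 79.6 and 87.5 CPM at day 14. Ptprc, the common leukocyte antigen, had 0 and 17 counts over the groups, Cdh1 (E-cadherin) 2 and 16, Myod1 0 and 1 and Cldn5 0 and 1. Of 18 tested adipocyte genes, 9 rose and 7 fell. Lpl, lipoprotein lipase, rose by 2.10 ± 0.18 (2.75 with length and GC correction) from 2.62 to 11.8 CPM, while Plin2, which coats lipid droplets, changed by -2.09 ± 0.05 from 933 ± 4.24 CPM and Ebf1, an early adipocyte factor, by -3.24 ± 0.13 (-2.61 with the correction). Pparg, the master regulator of fat cells, was at 1.51, 1.04 and 1.81 CPM and 1.82, 2.60 and 1.31 and was not called (edgeR adjusted p = 0.171), and Adipoq had no count. Of 9 tested cartilage genes, 4 rose and 3 fell, with a median of 0.11. Among the 4 with a mean of at least 5 CPM at either day, 1 rose, Prg4 by 1.34, and 3 fell. One of these was Sox9, the cartilage factor, from 6.31, 7.35 and 4.85 to 1.68, 1.53 and 2.10 CPM, a change of -1.82 ± 0.17.

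Genes of the response to cAMP, which forskolin raises, were mostly lower at the later day: 19 of 29 fell and 7 rose, with a median of -1.54. The list also holds adenylate cyclases, which make cAMP, and these are among the genes counted. Ptgs2, the inducible cyclooxygenase that makes prostaglandins (ENSMUSG00000032487, chromosome 1, 150100031 to 150108227), fell from 5645, 5678 and 5898 CPM to 288, 285 and 268, a change of -4.36 ± 0.04. The days were far apart, and this was among the most abundant transcripts of day 4. All 3 Nr4a receptors fell, with Nr4a1 (ENSMUSG00000023034, chromosome 15, 101254269 to 101274795) at 255, 258 and 227 CPM at day 4 and 30.7, 29.3 and 29.0 at day 14, a change of -3.06 ± 0.07. Nr4a3 changed by -3.39 ± 0.26. Inhba, a subunit of activin, changed by -4.55 ± 0.10 from 126 ± 2.23 CPM, and Gem, a small GTPase, by -3.23 ± 0.07. Against these, Fos rose from 13.5, 12.1 and 16.8 to 72.9, 74.5 and 70.2 CPM, a change of 2.37 ± 0.11, and Junb, its partner in AP-1, by 1.26 ± 0.08 (0.52 with length and GC correction). Adcy7, an adenylate cyclase, rose by 2.04 ± 0.18 from 4.52 to 18.8 CPM.

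The CRE, the palindrome TGACGTCA to which CREB binds, was searched on both strands of promoter windows of 250 bases before to 50 after a start (RefSeq, GRCm38.p6), overlaps counted. It was present in 1 of 22 matched members and in 3.49% of the 10793 tested genes with a window, or 1.79% of all 32851 windows. The member was Areg, the growth factor amphiregulin, which changed by -2.07 ± 0.13. The window on the plus strand, chr5:91139349-91139648, is shown because it holds the CRE (capitals), 61 bases before the start. A match is a description of the letters, and its absence says nothing about CREB.
Areg: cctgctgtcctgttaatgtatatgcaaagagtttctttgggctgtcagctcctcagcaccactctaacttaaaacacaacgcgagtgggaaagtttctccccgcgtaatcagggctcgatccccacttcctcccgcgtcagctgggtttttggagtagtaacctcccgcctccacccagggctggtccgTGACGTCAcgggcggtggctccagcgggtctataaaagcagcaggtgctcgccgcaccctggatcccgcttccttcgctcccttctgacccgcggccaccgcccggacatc

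Glucocorticoid response genes, which dexamethasone is known to induce, had 10 of 26 higher and 10 lower, shares close to those of all genes. Fkbp5, the chaperone most used as a readout of the receptor, rose modestly, from 93.6, 96.4 and 89.4 to 128, 131 and 125 CPM, a change of 0.45 ± 0.05 (edgeR adjusted p = 1.74e-07). Sgk1, a kinase induced by steroids (ENSMUSG00000019970, chromosome 10, 21882184 to 21999903), fell from 728, 728 and 717 to 72.6, 73.0 and 79.9 CPM, a change of -3.27 ± 0.06. Klf9, a direct target of the receptor, changed by -2.37 ± 0.05 and Errfi1, a feedback inhibitor of EGF receptors, by -2.57 ± 0.07. Lcn2, the siderophore-binding lipocalin 2, rose by 3.60 ± 0.08, and Hsd11b1, which activates glucocorticoids within cells, by 3.09 ± 0.28 from 0.668 to 5.81 CPM. The listed genes thus did not move together.

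Of 21 clock genes, 15 fell and 6 rose, with a median of -1.22. Hlf, an output factor of the clock, changed by -3.32 ± 0.14 from 64.9 ± 1.17 CPM, Nfil3, its repressor counterpart, by -2.30 ± 0.06, and Nr1d1 (REV-ERBα) by -1.82 ± 0.16. Per3 and Tef rose by 1.65 ± 0.16 and 1.17 ± 0.06, from 2.54 to 7.97 and 28.3 to 63.8 CPM. The labels do not give the hour of collection. Among 22 immediate early genes, 14 fell and 6 rose, with Ier3 at -2.69 ± 0.09, Jun at -2.07 ± 0.05, Myc at -1.70 ± 0.05 and Klf2 at 3.18 ± 0.14 (2.44 with length and GC correction).

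**Figure D2:**
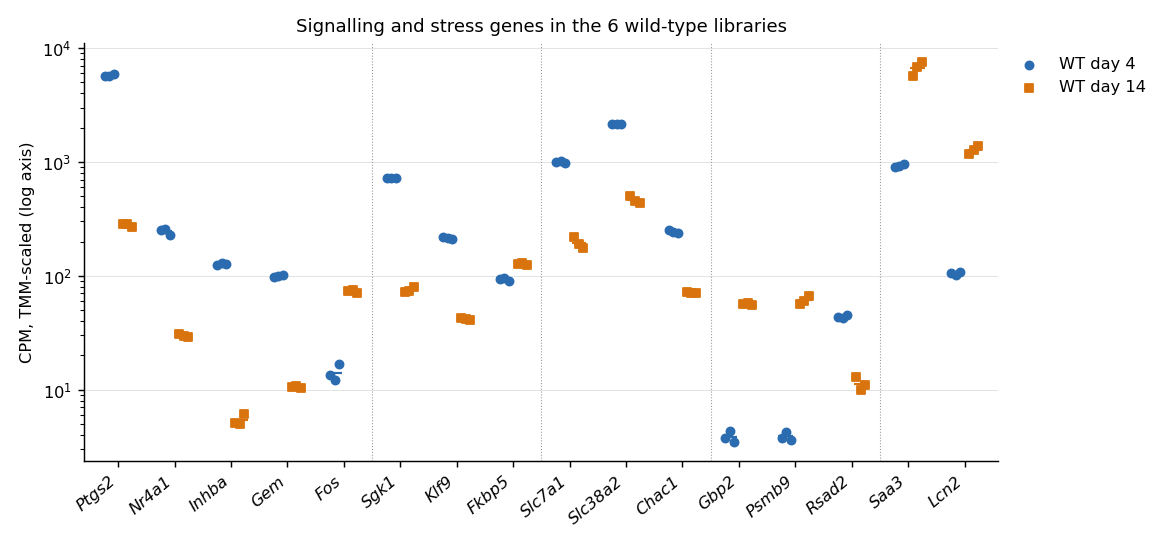
CPM on a log axis in the 3 WT libraries of day 4 (circles) and the 3 of day 14 (squares), with a bar at each mean, for cAMP response, glucocorticoid response, amino acid stress, interferon and acute phase genes, parted by dotted lines. Ptgs2 lay between 5645 and 5898 CPM at day 4 and between 268 and 288 at day 14, and Saa3 and Lcn2 rose, and within the interferon group Gbp2 and Psmb9 rose while Rsad2 fell.

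In several growth factor pathways more members fell than rose. In the BMP and TGF-β pathway, 24 of 42 genes fell and 13 rose. Among the ligands, Bmp4 rose from 4.76, 3.32 and 3.92 to 44.0, 37.0 and 39.8 CPM, a change of 3.32 ± 0.12, while Bmp2, with 714 counts at day 4 and 3 at day 14, was lower by a ratio of 145 (95% counting interval 49.3 to 703). The secreted BMP antagonist Grem1, gremlin (ENSMUSG00000074934, chromosome 2, 113746164 to 113758646), fell from 2522, 2517 and 2563 CPM to 277, 254 and 259, a change of -3.27 ± 0.05. Of the target genes, Id1 rose by 1.57 ± 0.14 from 16.8 to 49.7 CPM and Id2 by 2.21 ± 0.24, from 1.37, 1.48 and 1.94 to 5.09, 8.12 and 8.55 CPM, and Id3 rose from 13.3, 12.4 and 12.1 to 104, 119 and 122 CPM with a change of 3.18 ± 0.11. Id4, under 1 CPM in every library, was not called (edgeR adjusted p = 0.872), and without replicate 2 of day 14 it was called at -2.45. Smad9, a signal transducer of BMP receptors, rose by 4.37 ± 0.30 from 0.343 to 6.93 CPM.

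Wnt pathway genes counted 22 higher and 18 lower of 45, a split like that of all genes. Of the 10 Wnt ligands tested, 9 rose and Wnt7b fell, and none exceeded 7 CPM on average at either day. Wnt4 led with 3.63 ± 0.42, from 0.396 to 5.03 CPM. The receptors Fzd1 and Fzd5 changed by -1.51 ± 0.06 and -1.82 ± 0.11, and Fzd2 rose by 1.74 ± 0.12. Axin2, a feedback gene of the pathway, went from 4.87 ± 0.236 to 0.823 ± 0.0250 CPM, a change of -2.56 ± 0.22, and the inhibitor Nkd2 changed by -2.16 ± 0.11.

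In the IGF axis, 12 of 16 genes fell and 3 rose, with a median of -1.56. Igf2, the fetal growth factor, rose by 2.79 ± 0.20 from 2.40 to 17.0 CPM, while Igf1 had only 9 and 17 counts over the groups. The receptor gene Igf1r changed by -2.32 ± 0.24 and its adaptor Irs1 by -2.51 ± 0.23. The binding proteins split, with Igfbp5 (ENSMUSG00000026185, chromosome 1, 72857932 to 72874884) down from 333, 346 and 333 to 40.8, 34.7 and 29.2 CPM, a change of -3.27 ± 0.12, and Igfbp4 up by 2.25 ± 0.10. FGF and EGF family genes fell in 18 of 26 and rose in 4, or 7 with scaling by library totals, with a median of -1.05. Nrg1, neuregulin 1, changed by -3.44 ± 0.14 (-2.78 with length and GC correction), and the feedback inhibitors Spry1 and Spry2 by -3.52 ± 0.20 and -2.95 ± 0.08. Tgfa and the receptor Erbb3 rose by 2.53 ± 0.20 and 3.27 ± 0.23, from 2.54 to 14.3 and 0.743 to 7.30 CPM.

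Cyp24a1, the mitochondrial hydroxylase that inactivates vitamin D and a classic target of its receptor (ENSMUSG00000038567, chromosome 2, 170482708 to 170497145), showed one of the largest rises of any gene. It stood at 0.297, 0.130 and 0.0843 CPM at day 4 and at 439, 455 and 443 at day 14, a change of 11.18 ± 0.33. Without replicate 1 of day 4 the change was 11.88. Other genes of vitamin D and retinoids did not share this size: of 17 tested, 8 rose and 8 fell. Notch and Hedgehog genes had 12 of 23 higher and 7 lower, with Hes1, a Notch target, down with -2.22 ± 0.18 and the Hedgehog coreceptor Boc up by 1.25 ± 0.11.

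Acute phase and interferon genes were mostly higher at day 14. Of 23 acute phase and complement genes, 20 rose and 2 fell, with a median of 2.25 against 0.08 over all genes. Lcn2 was at 106, 102 and 108 CPM at day 4 and at 1186, 1286 and 1374 at day 14, a change of 3.60 ± 0.08. Saa3 and Hp are serum amyloid A3 and haptoglobin, chosen for their abundance after their values were seen. Saa3 went from 912, 926 and 952 to 5684, 6790.4 and 7602 CPM and Hp from 94.0, 85.9 and 90.7 to 763, 884 and 925. Saa3 has close copies, so shared reads make its counts uncertain. Steap4, a metalloreductase, rose by 3.70 ± 0.08 and Orm1, orosomucoid, by 3.73 ± 0.13. The ratio of the highest to the lowest library of day 14 was widest for Saa3 among these, and all 3 were above day 4.

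Interferon response genes rose in 31 of 38 and fell in 2, with a median of 1.18. Among those that rose, Gbp2, a guanylate-binding protein (ENSMUSG00000028270, chromosome 3, 142620602 to 142638008), went from 3.75, 4.34 and 3.46 to 56.5, 58.2 and 54.9 CPM, a change of 3.86 ± 0.09, and Psmb9, a subunit of the immunoproteasome, from 3.73, 4.29 and 3.62 to 56.9, 59.7 and 66.3, a change of 3.97 ± 0.16. Oas3, an oligoadenylate synthetase, rose by 3.99 ± 0.21 from 0.548 to 8.79 CPM. Rsad2 (viperin) and Ifit1, both antiviral effectors, moved against the group, Rsad2 from 43.8, 42.3 and 45.0 to 12.9, 10.0 and 10.9 CPM with a change of -1.95 ± 0.09 and Ifit1 by -1.10 ± 0.08. With length and GC correction 32 rose and 5 fell. Chemokines and interleukins split, 21 up and 17 down of 42: Ccl20 and Cx3cl1 rose by 4.48 ± 0.27 and 4.47 ± 0.23, from 0.767 to 17.0 and 0.956 to 22.0 CPM, and Il1rl1, the interleukin 33 receptor, changed by -2.87 ± 0.07 from 1061 ± 20.7.

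The interferon-stimulated element, searched as GAAA, any 2 bases and GAAA on both strands, lay in the window of 15 of 31 matched members and in 3.76% of tested genes with a window, or 3.44% of all windows. Of the 25 matched members that rose, 10 held it, as did both that fell. The windows of Oas3 (minus strand, chr5:120777610-120777909) and Gbp2 (plus strand, chr3:142620413-142620712), the risen holders with the largest changes, are shown with the element, on either strand, in capitals, 75 and 59 bases before the start.
Oas3: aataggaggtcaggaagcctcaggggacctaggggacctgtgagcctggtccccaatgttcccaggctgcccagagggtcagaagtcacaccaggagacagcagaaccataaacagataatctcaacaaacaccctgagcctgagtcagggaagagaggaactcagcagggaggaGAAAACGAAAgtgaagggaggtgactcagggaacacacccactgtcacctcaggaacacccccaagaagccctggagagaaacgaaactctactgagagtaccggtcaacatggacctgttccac
Gbp2: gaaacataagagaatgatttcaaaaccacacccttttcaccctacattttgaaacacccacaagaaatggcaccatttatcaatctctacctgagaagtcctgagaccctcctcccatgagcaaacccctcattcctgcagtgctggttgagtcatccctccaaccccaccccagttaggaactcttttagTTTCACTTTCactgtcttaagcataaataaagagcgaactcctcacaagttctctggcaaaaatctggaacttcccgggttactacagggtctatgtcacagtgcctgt

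Amino acid stress and transport genes, many of them targets of the factor ATF4, fell nearly without exception: 31 of 32 fell and 1 rose, with a median of -1.15. The same counts held with length and GC correction. Slc38a2, a neutral amino acid transporter (ENSMUSG00000022462, chromosome 15, 96687392 to 96699730), fell from 2154, 2156 and 2167 CPM to 506, 452 and 439, a change of -2.21 ± 0.08. Slc7a1, which imports arginine and lysine, fell from 1009, 1010.4 and 977 to 217, 190.5 and 175 CPM, a change of -2.36 ± 0.10. Slc1a4, another neutral transporter, changed by -2.29 ± 0.07 and Chac1, which cleaves glutathione, by -1.78 ± 0.05 (-2.37 with length and GC correction). Atf4 itself, like Axin2 and Igf1r above chosen after its values were seen, went from 1678, 1670.4 and 1658 to 682, 742 and 755 CPM, a change of -1.20 ± 0.08. Unfolded protein response genes were more evenly divided, with 10 higher and 13 lower of 25 (7 lower with scaling by library totals). The sensor kinase Ern1 changed by -1.98 ± 0.12, and the chaperone calreticulin, Calr, rose by 1.05 ± 0.05.

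The amino acid response element, TGATGNAA, was found in the windows of 11 of 26 matched members, all 11 of them among the 25 that fell, against 2.76% of tested genes with a window and 3.97% of all windows. Many genes of the list are known ATF4 targets, so its share is not independent of the element. The 2 holders with the largest falls, Slc1a4 (minus strand, chr11:20332664-20332963) and Chac1 (plus strand, chr2:119350992-119351291), are shown with the element in capitals. Its first base lies 4 and 193 bases before the start, and in Slc1a4 the element runs across the start.
Slc1a4: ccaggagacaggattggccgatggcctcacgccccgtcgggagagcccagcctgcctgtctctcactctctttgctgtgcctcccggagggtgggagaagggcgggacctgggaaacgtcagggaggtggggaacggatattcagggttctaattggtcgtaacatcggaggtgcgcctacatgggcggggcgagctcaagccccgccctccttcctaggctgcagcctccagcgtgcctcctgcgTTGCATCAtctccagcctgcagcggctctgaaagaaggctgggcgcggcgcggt
Chac1: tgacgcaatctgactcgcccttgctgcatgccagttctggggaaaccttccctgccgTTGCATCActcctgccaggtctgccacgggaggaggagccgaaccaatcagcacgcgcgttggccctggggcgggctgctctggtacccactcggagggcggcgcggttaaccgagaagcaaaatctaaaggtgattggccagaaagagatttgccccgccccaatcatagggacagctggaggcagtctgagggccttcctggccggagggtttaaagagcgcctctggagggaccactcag

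**Figure D3:**
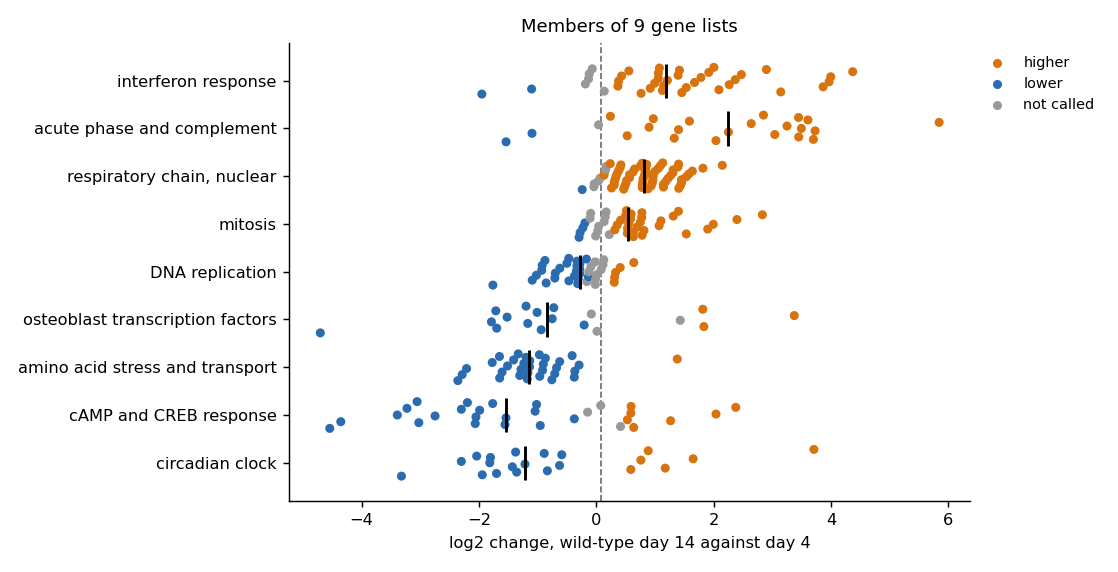
Log2 change of WT day 14 against day 4 for each tested member of 9 gene lists (dots), coloured by call at an adjusted p under 0.05, with a bar at each list's median and a dashed line at the median of all genes, 0.08. Acute phase genes have a median of 2.25 and cAMP response genes of -1.54, and mitosis and DNA replication genes lie on opposite sides of the dashed line.

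Cell cycle genes divided by phase. Of 40 mitosis genes, 27 rose and 4 fell, with a median of 0.54, while of 39 DNA replication genes 5 rose and 24 fell, with a median of -0.28. Scaling by library totals changed these to 34 and 0, and to 11 and 17. Ccnb2, cyclin B2 (ENSMUSG00000032218, chromosome 9, 70407692 to 70421547), rose from 20.5, 19.3 and 19.8 to 137, 139 and 147 CPM, a change of 2.83 ± 0.08. Ube2c, the ubiquitin-conjugating enzyme of the anaphase-promoting complex, and Cenpa, the centromeric histone, rose by 2.39 ± 0.10 and 1.99 ± 0.08. The replication licensing gene Cdc6 changed by -1.02 ± 0.05. Mki67, the usual proliferation marker, was at 156, 159.9 and 165 CPM and 211, 185 and 164, overlapping groups with no call (edgeR adjusted p = 0.113). It passed with length and GC correction (0.74, edgeR adjusted p = 1.13e-08), and also with upper quartile or library total scaling, in WT libraries alone and without replicate 3 of day 14. Inhibitors of cyclin-dependent kinases and p53 targets split, 13 up and 13 down of 30. Cdkn2a (p16 and ARF) rose by 1.51 ± 0.13 (0.77 with length and GC correction) and Cdkn1c (p57) by 2.40 ± 0.14 (1.75), while Cdkn1a (p21) fell from 240.3, 240.5 and 231 to 121, 125 and 124 CPM, a change of -0.94 ± 0.05 (edgeR adjusted p = 9.86e-11).

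The cell cycle homology region, TTTGAA, is a short and common string. It was in a window of 24 of 34 matched mitosis genes, against 14.4% of tested genes with a window and 17.9% of all windows. It was held by 16 of the 23 matched members that rose and by all 4 that fell. Ccnb2 (minus strand, chr9:70421505-70421804) and Ube2c (plus strand, chr2:164769679-164769978) are shown as the risen holders with the largest changes, with each match in capitals.
Ccnb2: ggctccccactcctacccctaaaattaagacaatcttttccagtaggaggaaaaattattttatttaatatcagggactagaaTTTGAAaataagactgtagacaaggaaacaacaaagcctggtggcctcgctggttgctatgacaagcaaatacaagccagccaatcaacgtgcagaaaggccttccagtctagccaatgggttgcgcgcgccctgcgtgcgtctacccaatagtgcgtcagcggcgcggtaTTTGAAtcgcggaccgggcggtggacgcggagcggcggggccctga
Ube2c: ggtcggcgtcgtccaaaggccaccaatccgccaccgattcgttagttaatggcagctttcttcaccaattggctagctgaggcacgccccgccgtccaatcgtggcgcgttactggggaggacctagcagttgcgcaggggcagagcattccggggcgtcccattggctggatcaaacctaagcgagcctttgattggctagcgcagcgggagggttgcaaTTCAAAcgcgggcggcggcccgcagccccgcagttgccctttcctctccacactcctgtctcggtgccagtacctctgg
Of 33 matched DNA replication genes, 6 held the E2F site TTTGGCGC in a window, 5 of them among the 20 that fell. The site was in 1.08% of tested genes with a window and 0.514% of all windows. For no element was a list's share tested against that of all genes.

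Energy and redox genes mostly rose. Nuclear genes of the respiratory chain were higher in 59 of 66 and lower in 1, with a median of 0.81, or 54 higher, 3 lower and 0.58 with length and GC correction. Ndufa5 and Ndufb8, subunits of complex I, rose by 2.15 ± 0.17 and 1.82 ± 0.13. The 12 genes of the mitochondrial genome split, with 4 up and 4 down. Of 35 oxidative stress and glutathione genes, 25 rose and 6 fell (3 with scaling by library totals). Gstt1 and Gstm2, glutathione transferases, rose by 2.96 ± 0.07 and 3.95 ± 0.06, from 19.7 to 154 and 9.20 to 141 CPM, and Gsto1 changed by -2.06 ± 0.06. Glycolysis genes rose in 15 of 24 and fell in 4: Pfkm and Pfkl, muscle and liver phosphofructokinase, rose by 2.10 ± 0.06 and 1.70 ± 0.06, whereas the glucose transporter Slc2a1 and hexokinase Hk2 changed by -1.58 ± 0.04 and -1.71 ± 0.07.

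Of 27 genes of fatty acid synthesis and oxidation, 10 rose and 10 fell. Fasn, fatty acid synthase (ENSMUSG00000025153, chromosome 11, 120805846 to 120824547), fell from 1582, 1566 and 1532 to 537, 453 and 424 CPM, a change of -1.73 ± 0.12, and Acaca, which makes its substrate, by -1.54 ± 0.14. Cholesterol synthesis genes fell in 14 of 24 and rose in 5, with a small median of -0.25. Mvk, mevalonate kinase, rose by 1.65 ± 0.09. The sterol element, ATCACC followed by CCAC, was in none of the windows of 16 matched members, and in 0.046% of tested genes with a window. Iron genes split, 6 up and 7 down of 16, with the storage subunit Fth1 up from 1506, 1497 and 1469.8 to 3646, 4160.4 and 4474 CPM (1.46 ± 0.11) and the uptake receptor Tfrc down from 618, 614 and 634 to 167, 165 and 149.9 (-1.95 ± 0.06). Epas1 (HIF-2α) rose by 3.45 ± 0.14, and Vegfa, Ndrg1 and Stc2, known hypoxia targets, changed by -1.28 ± 0.05, -2.47 ± 0.04 and -1.85 ± 0.10, in a list with 9 of 22 higher and 10 lower. Scaling by library totals gave 10 and 7 for hypoxia and 7 and 5 for iron.

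**Figure D4:**
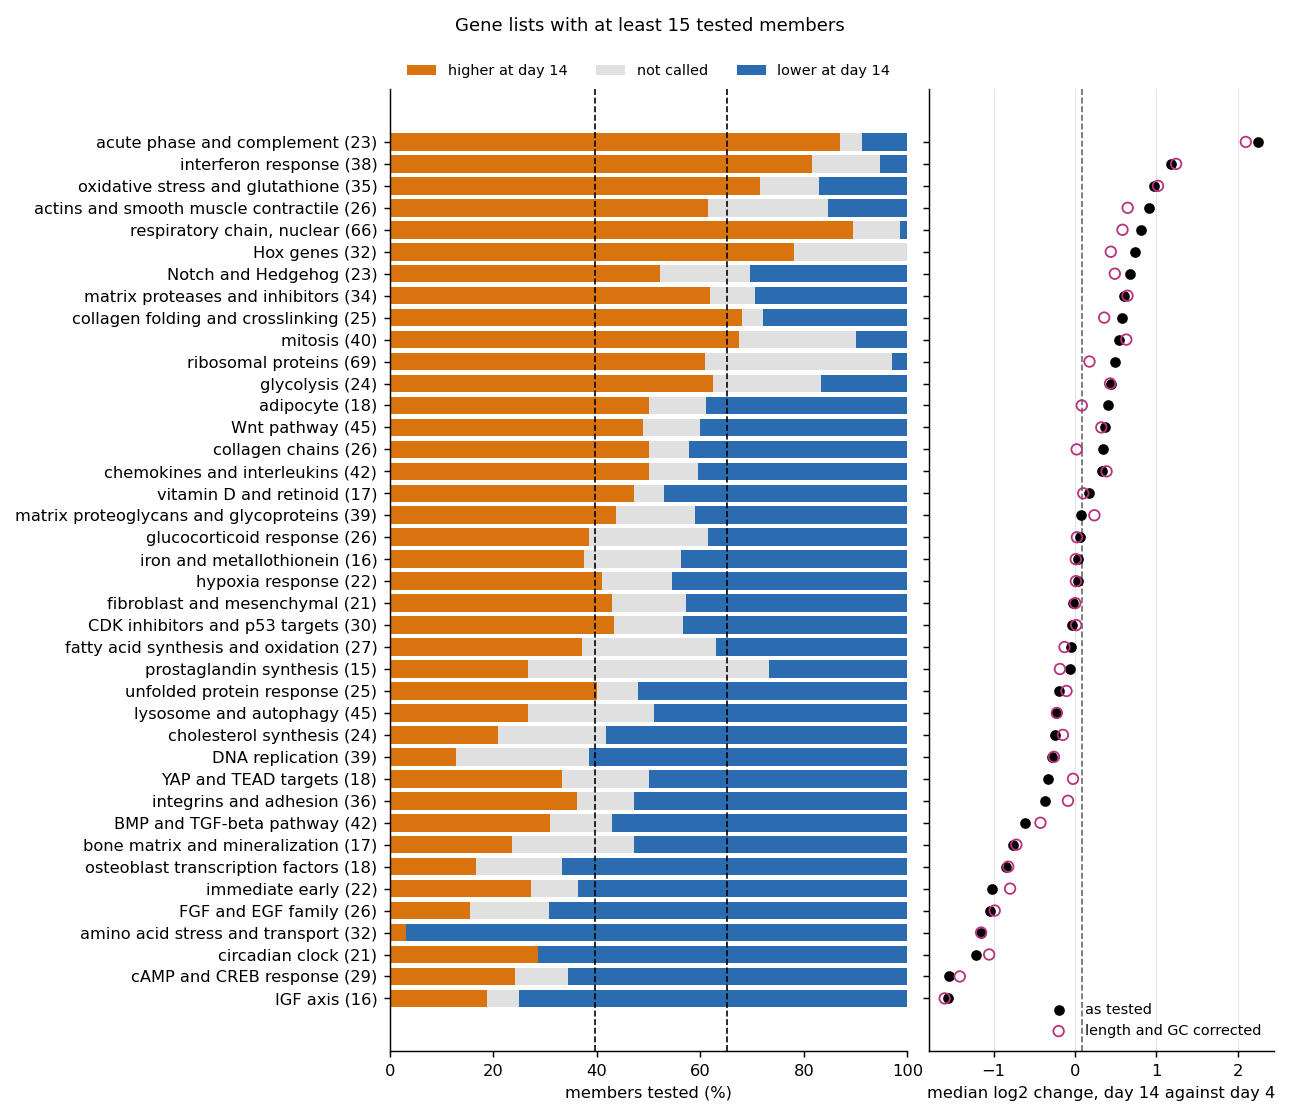
Left, share of the tested members (number in brackets) of each gene list that were higher, not called or lower in WT at day 14, with dashed lines at the shares over all genes, 39.7% higher and 34.9% lower; right, the list's median log2 change as tested and with length and GC correction, with a dashed line at the median of all genes. Among these lists of at least 15 tested members, the shares higher were largest for respiratory chain (89.4%), acute phase (87.0%) and interferon genes (81.6%), and amino acid stress genes are lower in 31 of 32.

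Among genes of at least 10 CPM at 1 of the days whose libraries did not overlap, the 15 largest rises were led by genes almost without counts at day 4. Krt17, an epithelial keratin, had 1 count over day 4 and 5088 over day 14, a ratio of 8375 with a 95% counting interval of 1503 to 330878, and stood at 70.0, 79.6 and 87.5 CPM at day 14. Hist1h2ap, a replication histone, had none at day 4 and was at least 690.3-fold higher, with day 4 set at 3 counts over the group, although near-identical copies make its counts uncertain. Vnn3, a pantetheinase, changed by 9.10 ± 0.58 from 0.0674 to 43.8 CPM, or by 11.02 without replicate 1 and 8.47 without replicate 2 of day 4. S100a16, a calcium-binding protein, rose by 7.38 ± 0.50 from 0.198 to 33.8 CPM, and Rassf4, a Ras-association protein, by 6.43 ± 0.22 from 0.569 to 52.1. Sorbs2, an actin-linked adaptor, rose by 6.32 ± 0.35 (7.12 with length and GC correction) from 0.388 to 33.5 CPM, and Mdk (midkine), a heparin-binding growth factor, by 6.09 ± 0.29 (5.49) from 0.373 to 27.7. The growth factor Pdgfb rose by 6.36 ± 0.49 from 0.174 to 15.1 CPM, or by 5.69 without replicate 1 and 8.25 without replicate 2 of day 4. Mgst2, a glutathione transferase of membranes, was higher by a ratio of 621 (95% counting interval 171 to 5141). Cited4, Klhl36 and Hacd4 rose by 7.44 ± 0.72, 6.15 ± 0.53 and 5.99 ± 0.27, from 0.0563 to 10.6, 0.115 to 10.3 and 0.284 to 18.3 CPM, and Cyp24a1 and Acta2 were also among the 15. With length and GC correction Cited4 was at 6.56 and Klhl36 at 5.50. Without replicate 2 of day 4 Cited4 was at 8.26, and without replicate 1 Klhl36 was at 8.93.

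The 15 largest falls were taken by the same limits, which left out Bmp2, at no more than 7 CPM at either day, whose ratio of 145 is given above. Alcam, an adhesion molecule of the immunoglobulin family (ENSMUSG00000022636, chromosome 16, 52248996 to 52454074), was at 243, 250.1 and 258 CPM at day 4 and at 2.52, 2.18 and 2.01 at day 14, a change of -6.80 ± 0.13. Olr1, a receptor for oxidized lipoprotein, changed by -7.69 ± 0.49 from 61.8 ± 2.62 CPM, or -8.75 without replicate 1 of day 14. Slco4a1, a carrier of organic anions including thyroid hormone, changed by -5.34 ± 0.07 from 514 ± 10.6 CPM, and Dio2, the deiodinase that activates that hormone, by -4.82 ± 0.15 from 106 ± 0.729. Atp1b1, a subunit of the sodium pump, changed by -6.02 ± 0.14 and Cdh13, T-cadherin, by -5.67 ± 0.30 (-5.06 with length and GC correction). Their levels went from 117 to 1.80 CPM for Atp1b1 and, for Cdh13, from 19.3, 20.3 and 20.5 to 0.373, 0.186 and 0.608. The guidance molecule Flrt2 changed by -6.87 ± 0.49 from 31.5 to 0.264 CPM, and Cnnm1, Htr1b, Cacnb2, Nipal1 and Hs3st1 changed by -5.84 ± 0.42, -5.83 ± 0.48, -5.61 ± 0.34, -5.11 ± 0.23 and -4.96 ± 0.34, all to under 1 CPM in each library of day 14, with Tnc and Col12a1 among the 15 as well. With length and GC correction Cacnb2 was at -4.90. Arl14epl changed by -5.51 ± 0.39 from 22.8 to 0.498 CPM, or by -6.22 without replicate 3 of day 14.

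A gene's length and base composition went along with its change. The median change fell from 0.37 in the decile of genes with the shortest exons to -0.48 in the decile with the longest, and rose from -0.27 at the lowest GC content to 0.56 at the highest. In KO cells over the same days the medians at these ends were -0.01 and -0.12 for length and -0.16 and 0.01 for GC content. A per-library correction by smooth curves of length and GC, chosen after seeing the data, brought every decile in WT to between 0.03 and 0.15. With it 11441 genes passed (6278 higher, 5163 lower), and 9621 of the 11410 calls (84.3%) were made again in the same direction. Of the named genes, 42 moved by more than 1.5-fold, and their corrected values stand beside them above where they are described. Ribosomal protein genes, which are short, went from 42 higher and 2 lower to 34 and 11 of 69.

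**Figure D5:**
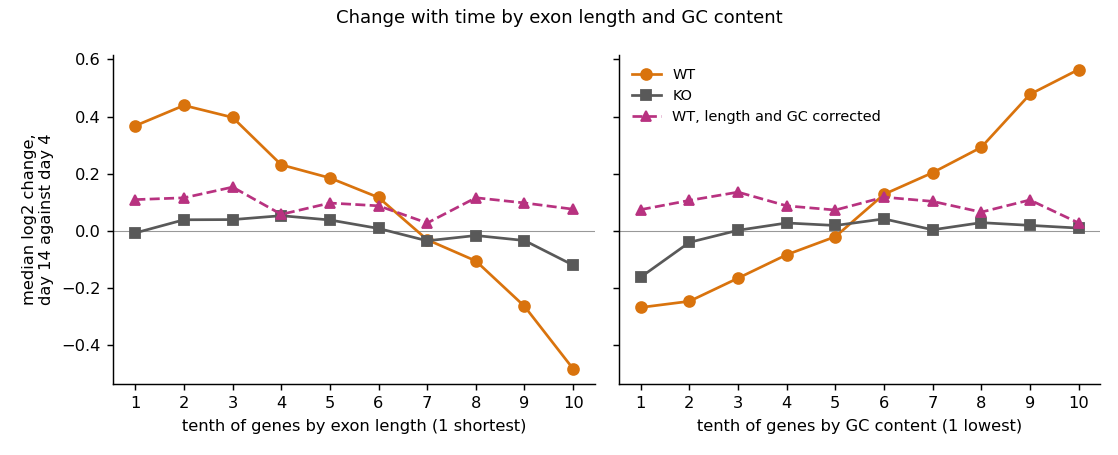
Median log2 change of day 14 against day 4 in each decile of the genes ordered by exon length (left) and GC content (right), in WT cells, in KO cells and in WT cells with length and GC correction. The WT medians run from 0.37 to -0.48 with length and from -0.27 to 0.56 with GC content, and the corrected ones stay between 0.03 and 0.15.

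The change with time differed in KO cells for many genes. Actb itself gave 129.9, 139 and 135 CPM in the KO libraries of day 4 and 46.5, 43.0 and 44.6 in those of day 14, below every WT library, so some reads of the targeted gene remained. In KO libraries 9316 genes (60.9%) passed, and the change itself differed between WT and KO in 9897 (64.7%; edgeR, test of the difference itself). Of the 7411 genes called in both, 4647 moved in the same direction, and 2764 moved in opposite directions with the difference called. Col1a1 rose by 3.23 ± 0.06 in WT and by 0.33 ± 0.06 in KO, a difference of 2.89 ± 0.09 (edgeR adjusted p = 3.70e-13). KO cells already averaged 770 CPM of Col1a1 at day 4 and 971 at day 14, beside 950.2 to 1053 in WT at day 14. Tnfsf11 fell in WT and rose by 3.85 ± 0.27 in KO, a difference of -5.83 ± 0.29 (edgeR adjusted p = 6.20e-12). Its KO levels were low at both days, with means of 0.397 and 5.96 CPM, and stayed below the 55.5 to 58.1 of WT at day 14. Slc7a1 changed by -2.36 ± 0.10 in WT and stood at 0.12 ± 0.10 in KO, a difference of -2.48 ± 0.15 (edgeR adjusted p = 7.23e-10). Of the amino acid stress and transport genes, 13 were higher and 10 lower in KO, with a median of 0.11, beside 1 and 31 in WT, and the lists' difference was not tested. Alcam fell in both, with changes of -6.80 ± 0.13 and -3.75 ± 0.07. The labels give no embryo or culture, so the origin of the cells and the genotype cannot be told apart.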

How the data were processed

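RNA of WT and KO fibroblasts in osteogenic culture was sequenced with an unstranded kit, per the labels' protocols. Per the submitters' processing notes, TopHat2 2.1.0, HTSeq, DESeq2 and the build GRCm38.p4 were used by the authors. The deposited values are raw read counts per Ensembl gene, 1 file per library. Strand setting and annotation release were not given in sources used here. Symbols came from GENCODE M21 for 46091 of 46603 IDs, and the other 512 IDs held 0.051% of counts.

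All 15 libraries were fitted in 5 groups with edgeR 4.0.16 in R 4.3.3 (filterByExpr, TMM scaling, robust quasi-likelihood F test, Benjamini-Hochberg adjusted p under 0.05). The filter kept 15296 genes and 99.94% of the counts of all 15 libraries, and the biological coefficient of variation was 8.33%. SEs are from the fit and are not smaller than counting error. In data simulated for this comparison, on 14878 genes, 96% of the 1.5-fold changes and 100% of the 2-, 4- and 8-fold ones were called. So were 10 of 14678 unchanged genes. Only 50 genes per fold were changed there, equally up and down and at 5 CPM or more, with noise drawn from the fitted model. The real data, with 74.6% of genes called and a trend with length and GC, differ, so these rates cannot be carried over to them. Intervals of ratios cover counting error only.

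Genes named are 24 key genes, defining members under the filter and complete sets such as the Id genes. With them are the 15 largest changes each way among genes called at 10 CPM or more without overlap. Up to 4 members each way of each of 51 gene lists were also named, from those called at 5 CPM or more with the largest changes. Saa3, Hp, Atf4, Axin2, Igf1r, Id1, Id2, Id4, Wnt7b and Areg were added after their values were seen. A few genes that the rule names are not reported here. Gene lists and key genes were chosen with earlier results of these data known. Alternatives were DESeq2 1.42.0, other scalings and filters, WT libraries alone, a replicate block, a fold threshold, each library left out and, added after seeing the data, length and GC curves with 5 degrees of freedom and a 5 CPM minimum. The heterozygous libraries entered the fit and no comparison.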

Additional observations from a re-analysis of the deposited data

Results flagged for a closer look

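The change from day 4 to day 14 differed between WT and KO cells in 9897 genes, by edgeR's test of the difference itself. That is 64.7% of the 15296 genes tested. Of the 19 key genes tested, which were chosen with earlier results known, 17 were called, and Fkbp5 and Spp1 were not. Each value that follows is the WT change minus the KO change on the log2 scale. WT cells changed more in the upward direction for the actins, with 2.93 for Actb (the targeted gene, at 129.9, 139 and 135 CPM in KO cells at day 4 and 46.5, 43.0 and 44.6 at day 14), 0.77 for Actg1 and 8.06 for Acta2, and for the collagen chains, with 2.89 for Col1a1 and 8.22 for Col1a2. Col1a2 was at 0.464 CPM or less in every WT library. Levels also differed: KO means at days 4 and 14 were 2116 and 489 CPM for Acta2, above every WT library, and 770 and 971 for Col1a1. The difference was also above 0 for Sparc at 0.26, Pparg at 1.27 and Mki67 at 0.49. It was below 0 for Runx2 at -1.11, Alpl at -0.71, Sox9 at -2.32, Cdkn1a at -1.16, Pdgfra at -1.63, Vim at -0.50, Tnfsf11 at -5.83, Mmp13 at -1.53 and Nr4a1 at -3.06. Tnfsf11 averaged only 0.397 and 5.96 CPM in KO cells at days 4 and 14. Sox9 fell in WT cells and was at 0.50 ± 0.11 in KO cells, and Nr4a1 changed by -3.06 ± 0.07 in WT and 0.00 ± 0.08 in KO cells. The KO libraries were prepared from other cells, whose culture the labels do not give.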

How the results depend on the processing

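The number of genes called stayed within 1.5 times of 11410 under the other scalings and filters, DESeq2 (11515), WT libraries alone (11155), length and GC correction (11441) and with 1 library left out (10935 to 11259). It fell outside with a test against a 1.5-fold change, which called 6463 genes, 3699 higher and 2764 lower. The replicate numbers did not pair the libraries: same-numbered deviations correlated at -0.0263, -0.0031 and -0.011, and a replicate block called 11310 genes, 6006 higher and 5304 lower. Of the values of named genes under all settings, 6262 kept direction and call, 109 lost the call, 10 gained it and 17 changed sign with a call on either side. With length and GC correction, and with it on WT libraries alone, the sign turned for Pdgfra (0.24 and 0.231), Ephb4 (-0.091 and -0.136), Cald1 (0.10 and 0.11), Ect2 (0.0718 and 0.0729), Bub3 (0.0932 and 0.0822), Prc1 (0.36 and 0.36) and Pfkp (0.0633 and 0.0672), and for Sparc, which was not called as tested (0.055, turning to -0.086 and -0.12). Scaling by library totals turned Prc1 (0.0032) and mt-Co1 (0.0201). The cause was not tested. At 20 M reads, genes under the filter could not be tested, and day, depth and the origin of the cultures cannot be told apart.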

Other observations

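Homeobox genes of the Hox clusters, which record a cell's position along the body, were higher at day 14 in 25 of 32 tested members and lower in 0, with a median of 0.74. With length and GC correction the counts were 17 and 2 and the median 0.44. Integrins and adhesion genes split, 13 up and 19 down of 36. Imprinted genes also split, 6 up and 5 down of 13. Lysosome genes fell in 22 of 45 and rose in 12, a balance that turned to 16 and 19 with scaling by library totals.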
